A study of Saccharomyces cerevisiae with 16 samples.

Results

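To examine how yeast cells expressed the genes that make serine and break down serine and threonine, transcript levels of 8 genes were followed across 6 groups of cells. The genes were taken by name as SER3, SER33, SER1, SER2, CHA1, CHA4, ILV1 and GLY1, and all 8 were found among the 7125 genes of the table and passed the filter on low values. RNA sequencing of the budding yeast Saccharomyces cerevisiae covered 12 biological replicates in 16 libraries, with 2 biological replicates in each group. Control and serine were given the genotype wt and differed by the added serine, for which neither dose nor time was given. WT was likewise labelled wt, CK2 carried the genotype ck2, YBL574 the genotype ybl574, and H3T11A the genotype t11a, a mutant of histone H3. According to the labels all cells were grown in YPD, a rich medium. Each biological replicate of YBL574 and H3T11A also had a sample titled as a technical replicate, called its second library here. The values of both libraries were averaged. Nothing in the labels says that the biological replicates came from separate cultures, so the tests measure the spread between these samples.

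Serine is built from a glycolytic intermediate in a short pathway. Ser3 and Ser33 are alternative forms of phosphoglycerate dehydrogenase, the enzyme of the first step, Ser1 is the phosphoserine transaminase of the next, and Ser2 is the phosphatase that releases serine. Cha1 is the catabolic deaminase that lets yeast use serine and threonine as nitrogen sources, and Cha4 is the zinc cluster activator that switches on CHA1 when these amino acids are present. Ilv1 deaminates threonine to begin isoleucine synthesis, and Gly1, the threonine aldolase, cleaves threonine to glycine and acetaldehyde. SER3 is known for a non-coding RNA, SRG1, which is transcribed across the SER3 promoter and represses SER3 when serine is available, with Cha4 as its activator.

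The levels are RPKM values, that is reads divided by gene length and library size, and changes are differences of log2(RPKM + 1), which understates the change of low genes. The scaling totals fitted to the steps of low values lay between 8774259 and 18078299 per library. With them, 3 reads in a gene of 1 kb corresponded to between 0.166 and 0.342 RPKM. They are not the summed reads of the genes. In most libraries the genes found in the reference held more, as in H3T11A replicate 3, second library (12479575 against 8774259). In the first libraries of YBL574 these genes held fewer, as in replicate 3 (16003138 against 18078299). The reason was not tested. Between biological replicates, Pearson's r over 6727 genes was 0.971 in H3T11A, 0.974 in CK2 and between 0.991 and 0.994 in the other groups.

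Several libraries carried differences that the labels do not name. CKA1, a catalytic subunit gene of casein kinase 2, was at 0.064 and 0.068 RPKM in CK2 and at 57.5 and 66.9 in WT. The pheromone gene MF(ALPHA)1, which alpha cells express, was between 339.8 and 1491 RPKM in control, serine and CK2 and at most 5.21 RPKM in WT, YBL574 and H3T11A, whereas MFA2, an a cell gene, was at most 4.88 RPKM in the former and at least 745 RPKM in the latter groups. YBL574 and H3T11A differed in the H3 gene copy that was read, with HHT1 at means of 1144 and 8.28 RPKM, and in the marker gene TRP1, at means of 0.678 and 98.1 RPKM. GAP1, the general amino acid permease gene that rich nitrogen represses, was at means of 1047 RPKM in control and 30.0 RPKM in WT. In CK2 against WT the median log2 fold change over the 289 tested genes of chromosome V was 0.91, against -0.055 to 0.015 on the other nuclear chromosomes. ILV1, GLY1 and SER3 lie on chromosome V. The part of these differences in the results was not tested except for chromosome V. In every comparison but serine against control, other differences between the strains and the labelled condition cannot be told apart.

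The upstream sequences of CHA1 and of SRG1 are shown because both transcripts rose with serine and both are known targets of the activator Cha4. They are read from build R64 on the strand of the transcript, and the capitals mark an inverted repeat in each and the run TATATAAA. The inverted repeats differ in sequence and were not chosen as sites of Cha4. GCGGA, an arm of the CHA1 repeat, also occurs in lower case in the SRG1 stretch, outside its marked repeat.
CHA1, chrIII:16961-17160, minus strand, bases 280 to 81 before the start codon: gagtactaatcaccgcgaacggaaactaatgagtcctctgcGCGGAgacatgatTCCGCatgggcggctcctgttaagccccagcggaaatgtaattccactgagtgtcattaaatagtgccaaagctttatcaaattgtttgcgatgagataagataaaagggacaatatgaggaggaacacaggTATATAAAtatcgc
SRG1, chrV:321992-322141, plus strand, bases 220 to 71 before the annotated start of the RNA: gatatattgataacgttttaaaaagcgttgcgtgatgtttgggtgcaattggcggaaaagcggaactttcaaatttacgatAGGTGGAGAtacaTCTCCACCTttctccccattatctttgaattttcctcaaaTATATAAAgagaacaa

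Each inverted repeat is the perfect one with the longest arms in its stretch, with 4 to 8 bases between the arms, and each was then searched on both strands in the 300 bases before 6001 protein-coding genes. The form GCGGANNNNNNNNTCCGC, which begins 239 bases before CHA1, occurred in 3 of these windows (0.05%), those of CHA1, of its divergent neighbour VAC17, which shares the same upstream DNA, and of MMF1. It was read from the CHA1 stretch, so the matches of CHA1 and VAC17 were given beforehand and only that of MMF1 was free. The number of matches to be had by chance was not computed for either form, so the counts do not show that a form is rare. MMF1, whose mitochondrial protein of the RidA family clears the reactive imine made by serine and threonine deaminases, rose with serine by a log2 fold change of 0.77 ± 0.14 (limma adjusted p = 0.0395), and VAC17 had 0.66 ± 0.16 (0.0884). MMF1 and VAC17 are named here after their values had been seen. The form AGGTGGAGANNNNTCTCCACCT, which begins 139 bases before SRG1, occurred in 0 of the windows. TATATAAA occurred in 11.3% of the windows, among them those of CHA1, CHA4 and SER3, and also lay 86 bases before SRG1. The binding sequence of the general activator Gcn4, TGACTCA, occurred in 2.62% of the windows and in 0 of the 8 windows of the members. Among the matches of the 8 members and of SRG1 none overlapped another, and a match is a description of the letters only.

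CHA1 spanned 453-fold from the lowest to the highest of the 12 replicates, far more than the other members (the plot of levels by replicate). GLY1 spanned 8.45-fold, SER33 5.08-fold, SER2 4.19-fold, SER3 3.76-fold, SER1 3.08-fold and ILV1 2.88-fold. CHA4 was the flattest, between 15.5 and 27.2 RPKM in all 12 replicates, a span of 1.75-fold.

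**Figure D1:**
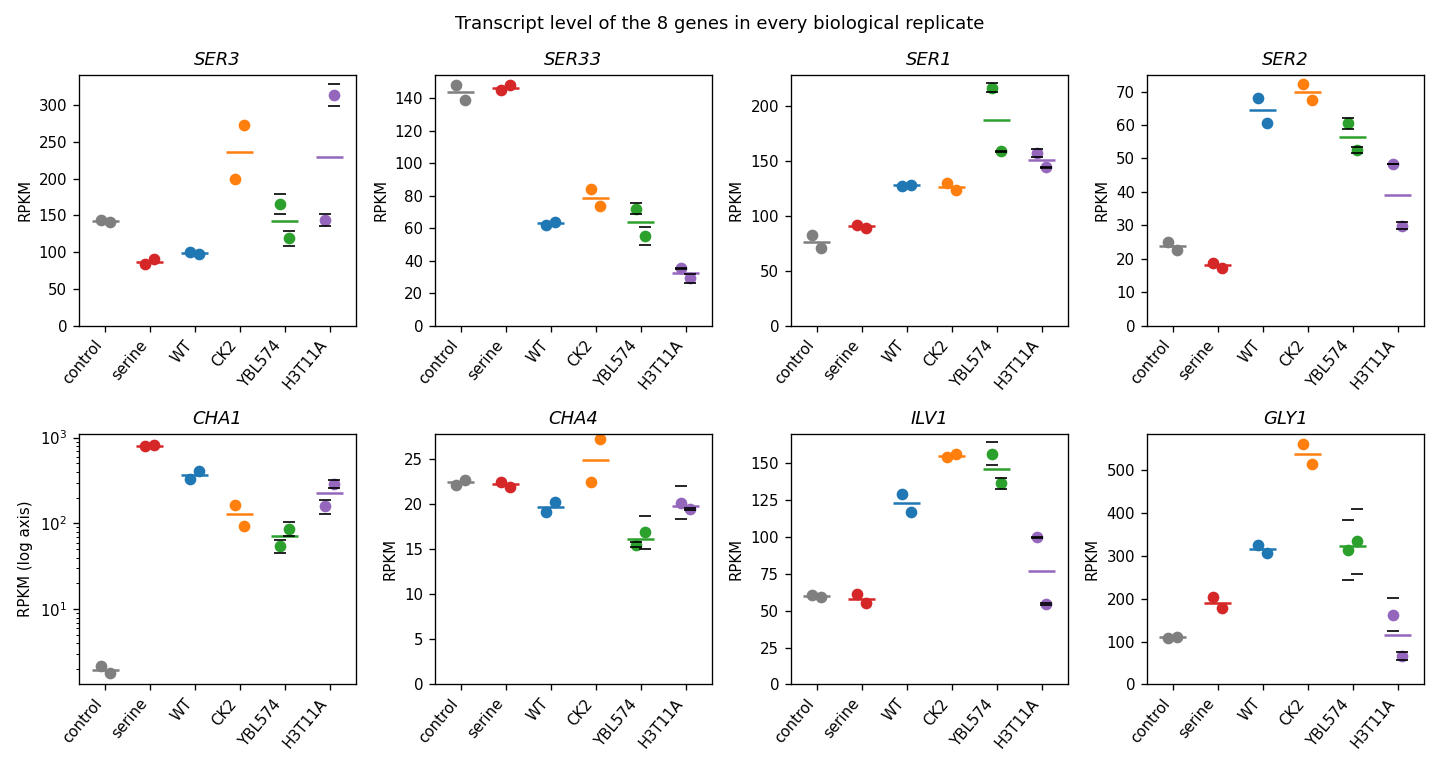
RPKM of the 8 genes in each of the 12 biological replicates (points, 2 per group on the x axis), with the group mean as a coloured bar and the separate technical libraries of YBL574 and H3T11A as black dashes; the CHA1 axis is logarithmic. CHA1 lay at 1.81 and 2.17 RPKM in control and at 796 and 820 in serine, while CHA4 stayed between 15.5 and 27.2 RPKM.

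The design pairs the serine group with control, the CK2 group with WT and the H3T11A group with YBL574. The untreated strains were also compared, as control with WT and as YBL574 with WT. Genes were tested with limma in a fit of all 6 groups, and an adjusted p (Benjamini-Hochberg, over 6727 genes) under 0.05 was called a change. In serine against control, 1.34% of all genes were called (0.714% higher and 0.624% lower), and of the 8 members 1 was, CHA1, which rose. In CK2 against WT, 31.0% of all genes were called (16.4% higher and 14.6% lower). There, of the 8 members, 2 rose (SER3 and CHA4) and 1 fell (CHA1). Not all of these calls were kept without WT replicate 2, WT replicate 3 or CK2 replicate 3. Fewer of all genes were called in those fits as well. In H3T11A against YBL574, 40.7% of all genes were called (19.1% higher and 21.6% lower), and 1 member rose (CHA1) while 4 fell (ILV1, GLY1, SER2 and SER33). Not all of these calls were kept without YBL574 replicate 2. In a limma fit of the 2 groups alone 0 members were called, with 4 at an unadjusted p under 0.05. Fewer of all genes were called in that fit too.

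Between the untreated strains, 59.0% of all genes were called in control against WT (22.1% higher and 36.9% lower), and of the members 1 rose (SER33) and 5 fell (CHA1, ILV1, GLY1, SER1 and SER2). In YBL574 against WT, 54.9% of all genes were called (6.42% higher and 48.4% lower), and of the members 1 rose (SER1) and 2 fell (CHA1 and CHA4). Not all of these last calls were kept in any fit that left out a replicate of WT or YBL574. The share of all genes called in those fits is not given here. The median log2 fold change of all genes was -0.17 in control against WT and -0.36 in YBL574 against WT, and values of both comparisons are therefore also given relative to that median. These comparisons and that of CK2 share the WT samples, and control is shared by the serine comparison, so their values are set side by side only.

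**Figure D2:**
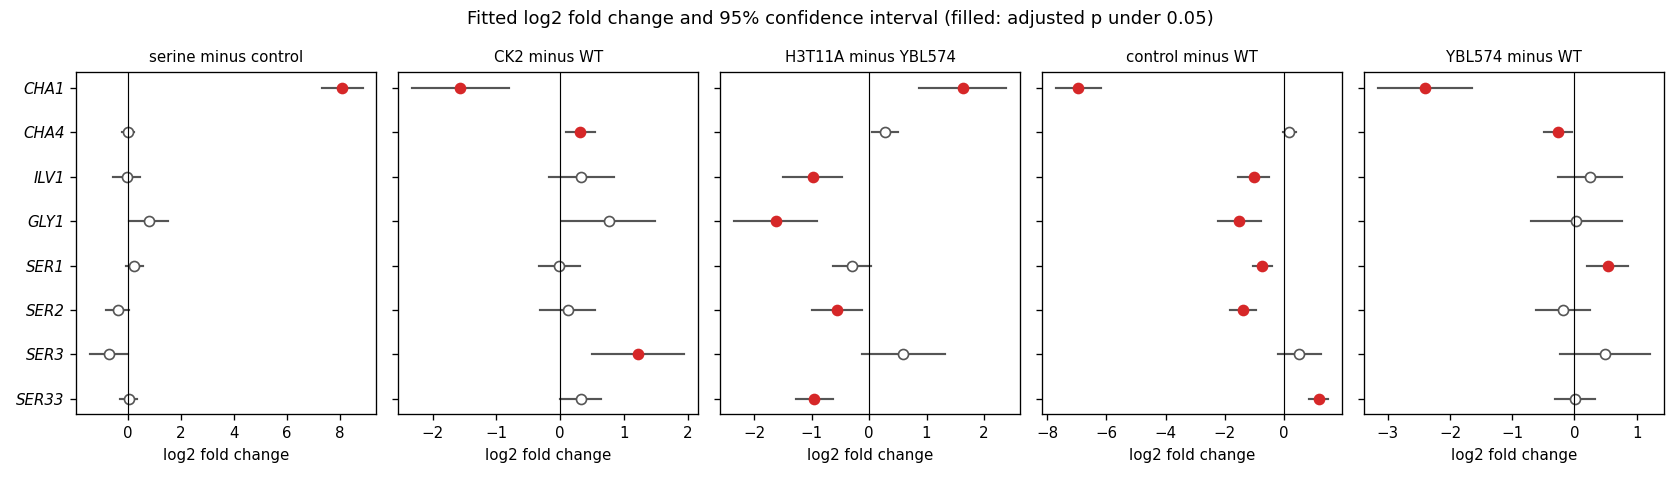
Fitted log2 fold change of each member (rows) in 5 comparisons (panels, each with its own x axis), with 95% confidence intervals as lines; filled points passed an adjusted p under 0.05. CHA1 was filled in every panel, at 8.08 in serine against control, -1.57 in CK2 against WT, 1.63 in H3T11A against YBL574, -6.95 in control against WT and -2.40 in YBL574 against WT.

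Of the serine synthesis genes, SER3 (YER081W, chromosome V, 322686 to 324095) was at 144 and 141 RPKM in control and at 83.4 and 90.0 RPKM in serine. Both serine replicates were below both control replicates. The log2 fold change was -0.71 ± 0.32 (SE, 95% interval -1.43 to 0.01), and the adjusted p of 0.372 in limma did not pass the threshold, whereas in a fit of the 2 groups alone it was 0.0458. SER3 was at 101 and 98.0 RPKM in WT and at 200 and 273 RPKM in CK2, where it rose by a log2 fold change of 1.23 ± 0.32 (limma adjusted p = 0.0188). The call was lost without WT replicate 2 (adjusted p = 0.0832), without WT replicate 3 (0.0827) and without CK2 replicate 3 (0.115).

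SER3 lies on chromosome V, whose genes were raised as a whole in CK2. Less the median of that chromosome, the SER3 difference in CK2 was 0.32 with an adjusted p of 0.478, and SER3 stood at percentile 83.7 of the chromosome's 289 genes. In H3T11A the SER3 replicates differed most, at 143 and 314 RPKM, against 166 and 119 RPKM in YBL574. The groups overlapped, with a log2 fold change of 0.59 ± 0.32 (limma adjusted p = 0.164). Without H3T11A replicate 1 the difference was 1.16 (adjusted p = 0.00156), and without H3T11A replicate 3 it was 0.03 (adjusted p = 0.923). For SER3 in order of group means, CK2, H3T11A, YBL574 and control overlapped from neighbour to neighbour, followed by WT at 99.4 RPKM and serine at 86.7 RPKM, which did not.

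SRG1 (chromosome V, 322212 to 322762, plus strand), the non-coding RNA that runs into the start of SER3, was at 34.2 and 35.1 RPKM in control and at 169 and 168 RPKM in serine. It rose by a log2 fold change of 2.25 ± 0.17 (limma adjusted p = 0.000307). In control, where SRG1 had its lowest values, SER3 was 4.01 to 4.20 times SRG1, against 0.493 and 0.536 times in serine. In WT it was 0.48 and 0.545 times. Over the 12 replicates SRG1 and SER3 had Pearson's r = 0.005 on the log2 scale, and the highest SER3 value, 314 RPKM in H3T11A replicate 3, came with SRG1 at 167 RPKM. In CK2 SRG1 was at 209 and 175 RPKM, the same range as WT (185 and 204 RPKM; log2 fold change -0.02, 95% interval -0.40 to 0.36), while SER3 was above WT in both replicates. SRG1 stood at percentile 5.2 of chromosome V in that comparison. Relative to the chromosome's median SRG1 was at -0.929 and SER3 at 0.319. SRG1 was at 117 and 116 RPKM in YBL574 and at 113 and 167 RPKM in H3T11A, which overlapped.

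**Figure D3:**
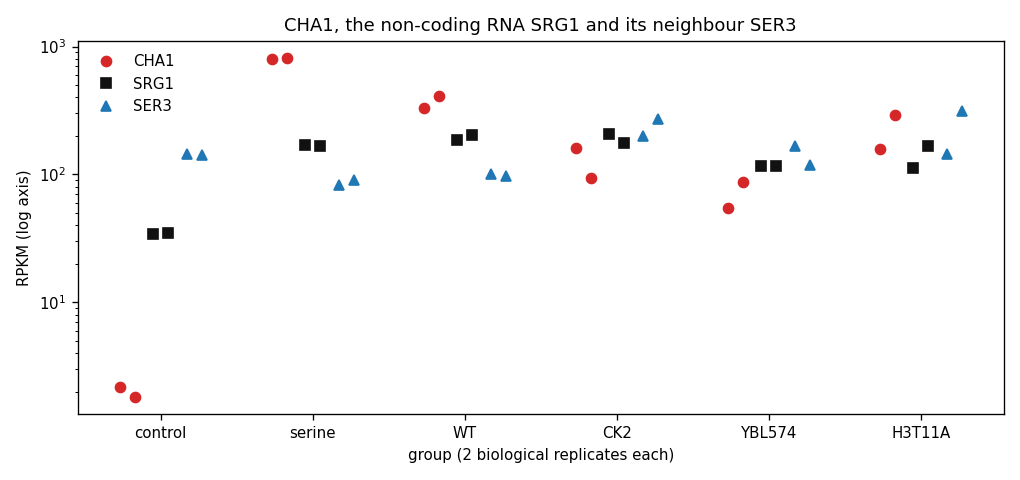
RPKM on a log axis of CHA1 (circles), SRG1 (squares) and SER3 (triangles) in the 2 biological replicates of each group. CHA1 and SRG1 had their lowest values in control, about 2 and 34 to 35 RPKM, while SER3 had its lowest in serine, 83.4 and 90.0 RPKM.

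SRG1 and SER3 overlap by 77 of the 1410 bases of SER3, so that SRG1 reads can count toward SER3 where strand and assignment allow it. If SRG1 reads were spread evenly over its length, they would make up between 1.3% (control) and 11.4% (WT) of the SER3 value. Taking them off leaves SER3 at 141.7 and 138.9 RPKM in control and at 74.2 and 80.9 RPKM in serine, the same order.

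SER33 (YIL074C, chromosome IX, 221081 to 222490, minus strand), which encodes the other dehydrogenase, did not follow SER3. It was at 148 and 139 RPKM in control and at 145 and 148 RPKM in serine, with a log2 fold change of 0.03 (95% interval -0.29 to 0.35). In WT it was lower, at 61.8 and 64.1 RPKM, so that SER33 rose in control against WT by 1.18 ± 0.14 (1.35 relative to all genes; limma adjusted p = 0.000127). It was at 72.1 and 55.1 RPKM in YBL574 and at 35.4 and 29.2 RPKM in H3T11A, where it fell with a log2 fold change of -0.95 ± 0.14 (adjusted p = 0.00113). All 4 H3T11A libraries, at 26.4 to 35.6 RPKM, lay below all 4 YBL574 libraries, at 49.7 to 75.8 RPKM. These are technical libraries of 2 biological replicates a group and add no replicate. The fall of SER33 had an adjusted p of 0.0716 in a fit of the 2 groups alone. In CK2 SER33 was at 83.9 and 73.9 RPKM, above WT in both replicates, but the adjusted p was 0.115 (0.0388 in a fit of the 2 groups alone).

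The share of SER3 within the pair of dehydrogenase genes was not tested and is given as a description. SER3 made up 49.2% and 50.4% of the summed SER3 and SER33 RPKM in control and 36.5% and 37.8% in serine. In WT it made up 62.0% and 60.5%, in CK2 70.5% and 78.7%, in YBL574 69.7% and 68.3%, and in H3T11A 80.2% and 91.5%. Every serine replicate was below every control replicate, and every CK2 and H3T11A replicate was above those of WT and YBL574, respectively. In CK2 against WT, less the median of each gene's chromosome, SER3 and SER33 both had a log2 fold change of 0.32, so the higher share in CK2 was not present after that subtraction. The coding sequences of SER3 and SER33 are 82.6% identical with a longest identical run of 56 bases. Of 1361 windows of 50 bases in SER3, 11 also occur in SER33. A read of that length from most of SER3 would thus not match SER33 exactly. Whether reads aligned with mismatches were kept apart was not tested.

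**Figure D4:**
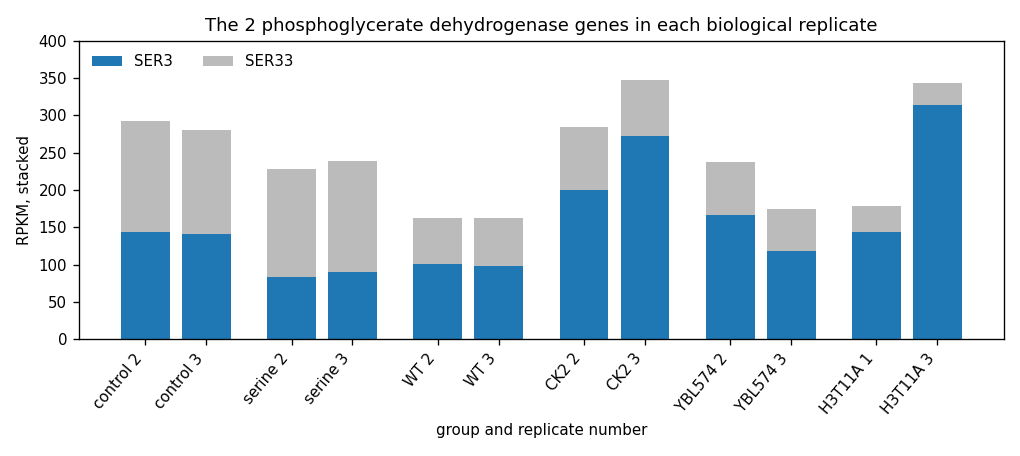
RPKM of SER3 (blue) and SER33 (grey) stacked in each of the 12 biological replicates, named by group and replicate number on the x axis. SER33 made up the larger part only in the serine replicates and in control replicate 2, and SER3 made up 91.5% in H3T11A replicate 3.

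SER1 and SER2, the genes of the later steps of serine synthesis, did not pass the threshold with serine or in CK2. SER2 (YGR208W, chromosome VII, 911883 to 912812) was at 25.04 and 22.6 RPKM in control and at 18.9 and 17.2 RPKM in serine, a log2 fold change of -0.38 (95% interval -0.82 to 0.05; limma adjusted p = 0.446). SER2 was between 52.5 and 72.3 RPKM in WT, CK2 and YBL574, and its control level was below WT by -1.40 ± 0.19 (-1.22 relative to all genes; adjusted p = 0.00028). In H3T11A it was at 48.4 and 29.9 RPKM, against 60.5 and 52.5 in YBL574. The fall of -0.55 ± 0.19 had an adjusted p of 0.0454 and did not pass without YBL574 replicate 2 (0.206), YBL574 replicate 3 (0.0861) or H3T11A replicate 3 (0.181), nor without the filter on low values (0.059).

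SER1 (YOR184W, chromosome XV, 679357 to 680544) was lowest in control, at 82.7 and 70.5 RPKM, and in serine, at 91.7 and 89.4 RPKM. It was at 127 and 129 RPKM in WT and at 130 and 124 RPKM in CK2, which overlapped. In YBL574 SER1 was at 217 and 159 RPKM and rose against WT by 0.53 ± 0.14 (0.90 relative to all genes; adjusted p = 0.012), a call that did not pass without YBL574 replicate 2 (adjusted p = 0.0828). H3T11A, at 157 and 145 RPKM, lay just below YBL574 without passing the threshold (adjusted p = 0.126).

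CHA1 (YCL064C, chromosome III, 15798 to 16880, minus strand), the serine and threonine deaminase gene, was called in all 5 comparisons. It was at 2.17 and 1.81 RPKM in control, which rested on 28 and 23 reads, and at 796 and 820 RPKM in serine. The log2 fold change of 8.08 ± 0.34 (limma adjusted p = 1.37e-05) was present in both replicates. In bulk cultures, more cells that express a gene and more RNA in each cell cannot be told apart. The WT strain, with no serine added according to its label, had CHA1 at 334 and 408 RPKM, between the values of control and of serine. Control was below WT by a log2 fold change of -6.95 ± 0.34 (-6.78 relative to all genes; adjusted p = 8.71e-07).

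In the mutants CHA1 moved in opposite directions. It was at 162 and 94.6 RPKM in CK2 and fell against WT by a log2 fold change of -1.57 ± 0.34 (limma adjusted p = 0.00789), which did not pass without WT replicate 3 (0.0555) or CK2 replicate 3 (0.0593). It was at 159 and 291 RPKM in H3T11A against 54.6 and 87.0 RPKM in YBL574, and rose there by 1.63 ± 0.34 (adjusted p = 0.00547; 0.0845 in a fit of the 2 groups alone). Each H3T11A library, at 128 to 323 RPKM, was above each YBL574 library, at 44.9 to 103 RPKM, but technical libraries add no biological replicate. YBL574 itself was below WT by -2.40 ± 0.34 (-2.04 relative to all genes; adjusted p = 0.000473). In order of means, serine was followed by WT, H3T11A, CK2, YBL574 and control, and only H3T11A and CK2 overlapped as neighbours. CHA1, which is read toward the left end of chromosome III, ends 15.8 kb from it and is thus among the genes near chromosome ends.

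CHA4 (YLR098C, chromosome XII, 337527 to 339473), which encodes the activator of CHA1, was at 22.1 and 22.6 RPKM in control and at 22.5 and 21.9 RPKM in serine. The log2 difference was -0.01 with a 95% interval of -0.24 to 0.21, so that the CHA1 transcript changed 271-fold on the log2(RPKM + 1) scale while the CHA4 transcript stayed within that interval. CHA4 was at 22.5 and 27.2 RPKM in CK2 and at 19.1 and 20.2 RPKM in WT, a rise of 0.31 ± 0.10 (limma adjusted p = 0.0399). It was not past the threshold after median-of-ratios scaling (0.0634) or in a fit of the 2 groups alone (0.0854), and not without WT replicate 2 (0.191), WT replicate 3 (0.0959) or CK2 replicate 3 (0.248). In YBL574, at 15.5 and 16.8 RPKM, CHA4 was below WT by -0.27 ± 0.10 (adjusted p = 0.0451), but 0.10 above the median of all genes. It turned to 0.16 under upper-quartile and 0.12 under median-of-ratios scaling. H3T11A was at 20.1 and 19.4 RPKM, above YBL574 in both replicates, with an adjusted p of 0.0519.

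ILV1 (YER086W, chromosome V, 328477 to 330207), the threonine deaminase gene of isoleucine synthesis, was at 60.3 and 59.4 RPKM in control and at 61.1 and 55.3 RPKM in serine. The log2 difference of -0.04 had a 95% interval of -0.55 to 0.47. ILV1 was at 129 and 117 RPKM in WT and 154 and 156 RPKM in CK2, an adjusted p of 0.295 (0.0237 in a fit of the 2 groups alone). It stood at percentile 11.4 of chromosome V in that comparison, at -0.575 relative to the chromosome's median. In H3T11A it was at 99.5 and 54.4 RPKM against 156 and 136 RPKM in YBL574, a fall of -0.98 ± 0.23 (limma adjusted p = 0.00926; 0.139 in a fit of the 2 groups alone).

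The ratio of the deaminase genes was not tested either. CHA1 was 0.0361 and 0.0305 times ILV1 in control and 13 and 14.8 times in serine. It was 2.59 and 3.48 times ILV1 in WT, 1.06 and 0.607 times in CK2, 0.349 and 0.639 times in YBL574, and 1.6 and 5.36 times in H3T11A.

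GLY1 (YEL046C, chromosome V, 67629 to 68792, minus strand), the threonine aldolase gene, was at 110 and 111 RPKM in control and at 203 and 178 RPKM in serine. Both serine replicates were higher, with a log2 fold change of 0.78 ± 0.32 (95% interval 0.05 to 1.51). The limma adjusted p was 0.32, and 0.0614 in a fit of the 2 groups alone, so neither passed. The highest level of GLY1 was in CK2, at 560 and 514 RPKM, against 326 and 306 RPKM in WT. This was a log2 fold change of 0.76 with an adjusted p of 0.103. GLY1 passed there in a fit of the 2 groups alone (0.00408) and after upper-quartile scaling (0.049). Less the median of chromosome V its difference turned to -0.14.

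In H3T11A GLY1 fell furthest of the 4 members that fell, from 313 and 334 RPKM in YBL574 to 163 and 66.3 RPKM. The log2 fold change was -1.62 ± 0.32 (limma adjusted p = 0.00457; 0.106 in a fit of the 2 groups alone), and it was -0.98 without H3T11A replicate 3 and -2.27 without H3T11A replicate 1. All 4 H3T11A libraries, at 56.1 to 202 RPKM, lay below the 4 YBL574 libraries, at 243 to 411 RPKM, again without adding a biological replicate. The members of H3T11A that fell did so furthest in replicate 3, in which ILV1, GLY1, SER2 and SER33 were all below replicate 1, while CHA1 and SER3 were above it.

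**Figure D5:**
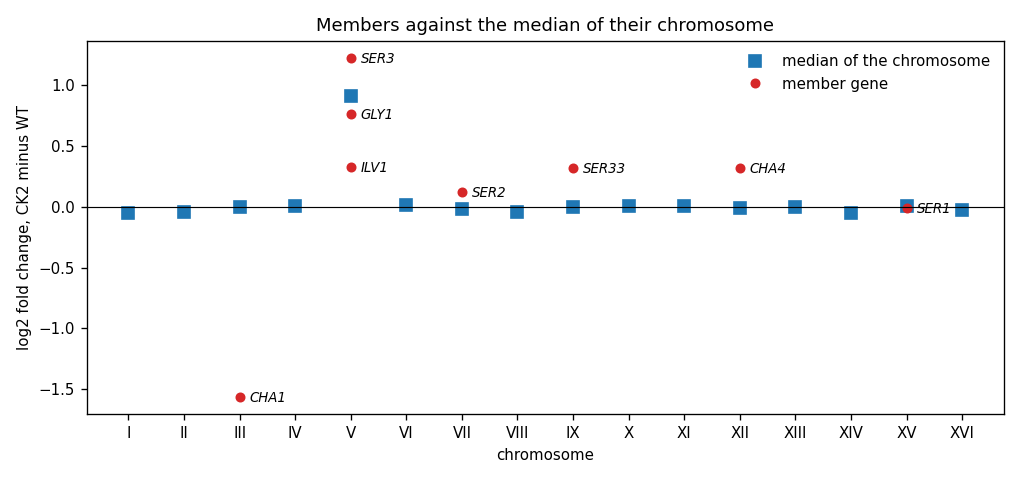
Fitted log2 fold change of CK2 minus WT for the 8 members (circles) beside the median of all tested genes on each chromosome (squares, x axis). The median of chromosome V was 0.91, so that of its members SER3 (1.23) lay above and GLY1 (0.76) and ILV1 (0.33) below the chromosome, while CHA1 (-1.57) lay on a chromosome with a median near 0.

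The neighbouring steps of metabolism were followed through lists of genes. In serine against control, where 0.714% of all genes were called higher and 0.624% lower, of the 6 genes of the isoleucine and valine steps after ILV1, 5 rose and 0 fell, with a median log2 fold change of 0.99 against 0.0035 for all genes. BAT1, a branched-chain aminotransferase gene, rose by 1.5 on the log2 scale (adjusted p = 0.000307), ILV3 by 1.18 (0.0139) and ILV2 by 1.11 (0.00474). ILV1 itself, the entry step, was at -0.04. Of 4 uptake genes 2 rose, DIP5, which encodes a dicarboxylic amino acid permease that also carries serine, by 4.85 (adjusted p = 0.000364) and GNP1, a permease gene of broad range, by 1.08 (0.00516). Of the 5 genes of threonine synthesis, the 7 of serine and glycine interconversion and glycine breakdown, and the 6 users of serine, 0 were called by limma, with 1, 1 and 2 at an unadjusted p under 0.05. Of all 6727 genes, 934 had an unadjusted p under 0.05 in that fit, so these counts are not read as a result about the lists. For the same 3 lists voom on recovered reads called 1, 0 and 0 genes.

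In CK2 against WT, 16.4% of all genes were called higher and 14.6% lower. Of the 7 genes of serine and glycine interconversion 0 were called by limma and 1 by voom, with 2 at an unadjusted p under 0.05. The shares of all genes under voom and at that unadjusted level are not given here. In the other lists, 2 of the 5 threonine synthesis genes fell, THR1 at -0.53 and HOM2 at -0.43. Of the 6 isoleucine and valine genes 1 rose, BAT2 at 0.32, and 2 fell, ILV2 at -0.51 and ILV5 at -0.47. Of the serine users CHO1, the phosphatidylserine synthase gene, rose by 1.06, and it lies on chromosome V as well. SES1, the seryl-tRNA synthetase gene, fell with a log2 fold change of -0.41, and of the uptake genes GNP1 fell at -0.63. GCN4, the general activator of amino acid synthesis genes, had a log2 fold change of 0.75 and is also on chromosome V.

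The list counts in H3T11A against YBL574 stand beside 19.1% of all genes called higher and 21.6% lower. HOM3, the aspartate kinase gene that opens threonine synthesis, fell from 202.4 to 65.5 RPKM (log2 fold change -1.75, adjusted p = 0.00272) and HOM2 fell at -0.92, while THR4, the threonine synthase gene, rose by 0.44. Of the 7 genes of serine and glycine interconversion SHM1, the mitochondrial serine hydroxymethyltransferase gene, rose by 1.01 and AGX1, the alanine glyoxylate aminotransferase gene, fell at -1.53. Of the 6 isoleucine and valine genes 3 fell, among them ILV5 at -1.11 and ILV2 at -0.58, and BAT2 rose by 0.63. Of the 6 users of serine 0 were called by limma or voom, with 2 at an unadjusted p under 0.05. The share of all genes at that unadjusted level is not given here. Of the uptake genes GAP1 rose by 1.20 and GNP1 fell at -1.06, and GCN4 fell at -0.72.

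Between control and WT, 22.1% of all genes were called higher and 36.9% lower, and the log2 fold changes that follow are less the median of all genes, while the calls were made without that subtraction. Of the 7 genes of serine and glycine interconversion and glycine breakdown 4 fell, with GCV3, GCV2 and GCV1 of the glycine cleavage complex at -1.66, -1.66 and -1.55, and 1 rose, AGX1 at 1.66. Of the 5 threonine synthesis genes 1 rose and 2 fell, of the 6 isoleucine and valine genes 1 rose and 3 fell, and of the 6 users of serine 1 rose and 2 fell, with CHO1, the phosphatidylserine synthase gene, at 2.53. Of the 4 uptake genes 2 rose and 2 fell, with GAP1, the general amino acid permease gene, at 5.26, DIP5 at -2.79 and GNP1 at -2.46. SRG1 fell, at -2.28.

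Between YBL574 and WT, 6.42% of all genes were called higher and 48.4% lower, and the log2 fold changes are again less the median of all genes. Of the 5 threonine synthesis genes 4 rose, with HOM3, HOM2 and THR1 at 1.29, 1.19 and 0.96. Of the 6 isoleucine and valine genes 2 rose, ILV6 at 1.40 and ILV3 at 1.12, and 1 fell, BAT2, which was at -0.084 on this scale. Of the 7 genes of serine and glycine interconversion 1 rose, SHM1 at 0.75, and of the 6 users of serine 1 fell, CYS4 at -0.20. Of the 4 uptake genes 2 fell, AGP1 at -0.44 and GNP1 at -0.11, and SRG1 fell, at -0.37.

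Over the 12 biological replicates, which come in 6 groups of 2 and so are not independent points, the gene whose level ran closest to that of CHA1 among all tested genes was SRG1 (Pearson's r = 0.924 on the log2 scale), followed by DIP5 (0.902) and YJL213W (0.788). CHA1 and SRG1 were both lowest in control, at means of 1.99 and 34.6 RPKM, and r without control was not computed. In serine, WT and CK2, CHA1 had means of 808.2, 370.6 and 128.5 RPKM, against 168.6, 194.5 and 191.9 RPKM for SRG1. Both means were higher in H3T11A than in YBL574. For SER3 the closest were MSA2 (0.926), YBR138C (0.899) and YLR358C (0.865), and for SER33 YLR126C (0.985). SER2 ran closest to ADE2 (0.994), ILV1 to SSU1 (0.98), SER1 to TVP15 (0.976), GLY1 to AIM36 (0.966) and CHA4 to ZRG8 (0.941). Among the members, SER2 and ILV1 ran most alike (0.943), followed by GLY1 and ILV1 (0.877). CHA1 and CHA4 had r = -0.079.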

How the data were processed

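The deposited table holds RPKM values (reads per kilobase, scaled to the library's read total) of 7125 genes in 16 libraries. Per the labels the authors ran CASAVA 1.8.2, TopHat2 2.0.13 and edgeR on build sacCer3, whose reference R64 gave gene positions. Of the 7125 identifiers, 85.3% matched it. The counting method, the use of strand and the denominator are not given in the sources used here. Scaling totals were fitted from the steps of low values, of which 96.7% to 98.7% were whole within 0.1. They cover counting error only. Technical libraries were averaged. log2(RPKM + 1) of 6727 genes with at least 1 RPKM in at least 2 biological replicates entered limma 3.58.1 (R 4.3.3) as 1 fit of 6 groups with 6 residual degrees of freedom and an intensity trend. The script was tested on simulated data. Alternatives were other pseudocounts, filters, scalings, a fit of the 2 groups alone, the replicate block, left-out replicates and voom on recovered reads.

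The members, lists and motifs were chosen with earlier results of these data known. Named were all 8 members, at most 3 genes of each list past the threshold with the largest absolute log2 fold change, and the tested genes most correlated with each member. Genes that checked the labels were named besides. MMF1 and VAC17 were named from a motif match, after their values had been seen. Sequences come from RefSeq, build R64.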

Additional observations from a re-analysis of the deposited data

How the results depend on the processing

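Of 560 refits of the 8 members over the 5 comparisons, 483 kept their direction and their side of the threshold, 33 lost it, 24 gained it and 20 changed sign. In serine against control, limma called 90 genes of 6727, and 15 to 23 when any control or serine replicate was left out, while CHA1 stayed called in each. voom called 146 genes. A fit of the 2 groups alone called 90 of all genes and 2 members, CHA1 and SER3. The replicate numbers were not taken as pairing: deviations of same-numbered samples correlated at -0.088 (serine and control), -0.052 (CK2 and WT), 0.122 (control and WT) and -0.027 (YBL574 and WT). With the replicate block, 0 genes and 0 members were called by limma with serine, with 1162 genes and 4 members at an unadjusted p under 0.05. A block with crossed numbers, chosen after seeing the data, called 0 genes and 0 members, with 1547 and 4 at that level. Under the block 4 members were called in CK2 against WT, 7 in control against WT and 4 in YBL574 against WT. In the main fit 31.0%, 59.0% and 54.9% of all genes were called there. The shares under the block are not given here, so these counts are not read as a result about the members. The sample called CK2 replicate 2 carries a different number in its description than in its title, which was followed here. Whether CK2 and WT share both replicate numbers is therefore not settled, and their correlation and block count cannot decide a pairing. No paired analysis was possible for H3T11A against YBL574 because they share only replicate number 3.

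With serine, the sign changed in some fits without a replicate for members near 0, with log2 fold changes of -0.028 to 0.006 for CHA4, -0.017 to 0.078 for SER33 and -0.111 to 0.03 for ILV1. In CK2 against WT, the 2083 genes called became 1062 to 1270 without a replicate, and the 3 members 0 to 3. Upper-quartile scaling and the fit of the 2 groups alone each called 5 members. The shares of all genes called under these settings are not given here, so this rise is not read as particular to the members. SER1 was at 0.084 under upper-quartile scaling and at -0.047 to 0.023 without a replicate. Less the chromosome median, ILV1 was at -0.575 and GLY1 at -0.14. In H3T11A against YBL574, the 2740 genes became 1656 to 4008 without a replicate, and the 5 members 3 to 6. The fit of the 2 groups alone called 224 genes and 0 members, with 4 members at an unadjusted p under 0.05.

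In YBL574 against WT, 3690 genes were called, of which 11.7% were higher. Upper-quartile scaling called 2302 (57.4% higher) and median-of-ratios scaling 2403 (50.1% higher). Those scalings turned CHA4 to 0.16 and 0.12 and SER2 to 0.26 and 0.22. Without a replicate not all 3 member calls were kept, and the share of all genes called there is not given here. GLY1 was at -0.014 to 0.078 without a replicate and changed sign with voom (-0.027) and with the first technical library alone (-0.34). SER33 was at -0.188 to 0.195 without a replicate and changed sign with voom (-0.015) and with the first technical library alone (-0.11). In control against WT, median-of-ratios scaling raised the higher share from 37.5% to 48.8%, and in CK2 against WT upper-quartile scaling raised it from 52.8% to 64.7%. The causes were not tested. Where a left-out replicate leaves 1 sample in a group, that sample is assumed to vary like the other groups. With 2 replicates a group, CHA1 in control rests on 23 and 28 reads, and the other members on at least 198 in a library.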

Other observations

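For some members the second technical library differed from the first in a like way in all 4 biological replicates of YBL574 and H3T11A. GLY1 was 1.58, 1.60, 1.63 and 1.36 times as high in the second library as in the first. CHA1 was 0.699, 0.683, 0.678 and 0.804 times as high. SER3 was 1.18, 1.19, 1.12 and 1.10 times as high, whereas SER1 lay between 0.953 and 1.04 times. Second libraries were present for these groups only, and averaging gave both libraries the same weight.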
